A study of Mus musculus with 3 samples.

Results

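The genes of 8 hormone receptors and receptor partners of the Leydig lineage were read in the in vitro Leydig differentiation of adult mouse testis cells. They were Lhcgr, Prlr, Ghr, Insr and Mrap, which act at the cell surface, and Esr1, Nr3c1 and Thra, which are nuclear receptors. They were chosen by name among the 24698 genes of the merged count table, with earlier results of these data known. The starting cells were SCA1+/cKIT- cells of C57BL/6 males aged 8 to 12 weeks. They were plated at 100000 cells per well, recovered for 18 h in medium with 10% FBS and expanded for 3 days with PdgfAA, PdgfBB and Fgf2 (10 ng/ml each) and 0.5 µM SAG, an agonist of hedgehog signaling. Differentiation medium then held the same factors with 5 mM LiCl2 and 10 µM DAPT, an inhibitor of Notch signaling. Day 7 came 3 days after the change to this medium, which puts day 4 at about the time of the change, so comparisons with day 4 also compare media. Single cells were read by Drop-seq, which tags the RNA molecules of every cell so that each is counted once as a unique molecular identifier (UMI), at days 4, 7 and 14, with 1 library per day. Because each day is 1 library, no test between days was possible, and a difference between days and a difference between libraries cannot be told apart. The wells were seeded from a sorted population and not from a clone, and the number of animals behind each library is not given in the sources used here.

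The libraries held 2980 cells on day 4 (12677110 UMIs), 2171 cells on day 7 (11627440 UMIs) and 973 cells on day 14 (5324400 UMIs), at median depths of 2886.5, 3285 and 3272 UMIs per cell. No cell barcode was shared between libraries, the counts being 0 for each of the 3 pairs. The day 14 cells were separated by the transcripts of Cyp11a1 and Hsd3b1, enzymes of the first steps of steroid synthesis. The 418 cells with at least 10 UMIs of the 2 genes together per 10000 UMIs are called enzyme-high, and the other 555 enzyme-low. This is a range and not a cell type, since 43 cells lay between 8 and 12 per 10000 and 23 enzyme-high cells were placed by 1 or 2 UMIs. The last cell below the limit had 9.65 and the first above it 10.1 per 10000. Levels are given as UMIs per 1000000 UMIs of the group (CPM) with exact Poisson 95% intervals, which cover counting error only.

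Leydig markers that did not set the classes followed the label. Insl3, the peptide hormone of Leydig cells, stood at 3.39 CPM on day 4, 7.83 CPM on day 7, 716 CPM in enzyme-low and 2902 CPM in enzyme-high cells of day 14. Cyp17a1, an enzyme of androgen synthesis, stood at 0.158, 2.32, 22.7 and 1709 CPM in the same order. The 7 Leydig markers together summed to 397, 545, 1903 and 7947 CPM, and the part of free RNA in the enzyme-low value was not tested. The 4 smooth muscle and myofibroblast markers summed to 4351, 3988, 249 and 6.84 CPM, with Cnn1 at 0 on day 14. The 5 macrophage markers summed to 8.05, 25.5, 414 and 10.6 CPM, and Adgre1 and Ptprc were at 0 in enzyme-high cells. Without the cells whose macrophage markers reached 10 per 10000 (2 cells of day 4, 4 cells of day 7 and 3 enzyme-low cells of day 14), each ratio of a member stayed within its counting interval. The 4 interstitial progenitor markers, which include Ly6a, the gene of the sorted SCA1, summed to 803, 292, 633 and 471 CPM, with Tcf21 at 30.9, 21.6, 24.2 and 3.80 CPM, and their part in the members' differences was not tested. Endothelial markers summed to at most 114 CPM, germ cell markers to at most 87.7 CPM, Sertoli markers to at most 34.0 CPM and adrenal cortex markers to at most 2.76 CPM in these 4 groups of cells.

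Leydig cells are governed by hormones of the pituitary. Luteinizing hormone acts through LHCGR, a receptor that raises cAMP and with it cholesterol import and steroid synthesis. Prolactin and growth hormone act through single-pass receptors of the cytokine family that signal by JAK2 and STAT5, insulin through a receptor tyrosine kinase, and estrogen, glucocorticoid and thyroid hormone through receptors that bind DNA.

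The promoters of Lhcgr and Prlr, the members that differed most between days, and of Ghr, which differed the other way, are shown for their sequence context. RefSeq gave 300 bases (250 before and 50 after a start site, GRCm38.p6) for 4 of the 8 members: Lhcgr with 1 start, Prlr with 3, Esr1 with 2 and Ghr with 2. Both strands were searched for 6 motifs, and matches are in capitals. The GC box was spelled GGGCGG. The short site of the kind bound by NR5A1 was spelled AAGGTCA. Its extended form, which holds the short site, was spelled TCAAGGTCA. The GATA site was spelled AGATAA. The cAMP response element was spelled TGACGTCA. Its short site, which lies within it, was spelled TGACG.
Lhcgr, chr17:88791965-88792264, minus strand: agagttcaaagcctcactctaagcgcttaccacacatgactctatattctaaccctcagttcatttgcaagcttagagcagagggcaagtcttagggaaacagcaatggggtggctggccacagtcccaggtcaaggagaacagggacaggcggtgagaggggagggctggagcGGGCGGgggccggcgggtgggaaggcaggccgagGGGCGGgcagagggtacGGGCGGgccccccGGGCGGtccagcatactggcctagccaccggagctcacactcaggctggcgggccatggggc
Prlr, first start, chr15:10176988-10177287, plus strand: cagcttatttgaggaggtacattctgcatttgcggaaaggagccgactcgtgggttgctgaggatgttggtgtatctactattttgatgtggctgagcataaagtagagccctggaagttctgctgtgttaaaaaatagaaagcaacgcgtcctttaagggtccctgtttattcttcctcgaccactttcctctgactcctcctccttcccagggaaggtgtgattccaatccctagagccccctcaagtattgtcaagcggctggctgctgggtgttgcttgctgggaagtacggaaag
Prlr, second start, chr15:10223656-10223955, plus strand: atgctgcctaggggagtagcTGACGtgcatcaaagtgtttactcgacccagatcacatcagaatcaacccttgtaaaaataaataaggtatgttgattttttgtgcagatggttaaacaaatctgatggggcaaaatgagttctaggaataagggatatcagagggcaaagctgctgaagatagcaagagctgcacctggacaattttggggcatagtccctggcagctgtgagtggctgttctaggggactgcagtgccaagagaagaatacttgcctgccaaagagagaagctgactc
Ghr, first start, chr15:3583303-3583602, minus strand: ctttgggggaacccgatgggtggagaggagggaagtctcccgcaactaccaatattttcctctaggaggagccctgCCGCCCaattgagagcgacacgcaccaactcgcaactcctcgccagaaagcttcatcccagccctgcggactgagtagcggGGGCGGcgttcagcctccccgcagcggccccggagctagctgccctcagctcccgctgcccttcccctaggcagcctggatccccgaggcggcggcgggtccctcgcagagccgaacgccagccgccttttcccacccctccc
The Lhcgr window held 4 GC boxes, at -76, -42, -25 and -12 from the start site, and 64.0% G or C. The first Ghr window held 2 GC boxes, and the second Prlr window held 1 TGACG, at -230. A GC box was found in 35.7% and TGACG in 20.8% of the 32851 RefSeq promoters of this length. None of the 8 windows of the 4 members held the NR5A1 short site, its extended form, the GATA site or the whole cAMP response element, which 4.72%, 0.423%, 11.2% and 1.79% of all promoters held. A match is a description of these letters only.

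Over all cells of the day, Lhcgr and Prlr were close to absent on days 4 and 7. They were read mainly in the enzyme-high cells of day 14. The few enzyme-high cells of the earlier days are given below. Ghr and Nr3c1 were lower on day 14 than before in both classes. From day 4 to day 7 none of the 7 members with at least 20 UMIs over both days was 2-fold higher or lower, where 5.39% of 12954 genes were 2-fold higher and 4.33% lower. From day 7 to day 14, 3 of 8 members were at least 2-fold higher (Lhcgr, Prlr and Mrap; 12.4% of all genes) and 2 at least 2-fold lower (Ghr and Nr3c1; 16.6% of all genes). From day 4 to day 14, 4 members were at least 2-fold higher (Lhcgr, Prlr, Insr and Mrap; 16.3% of all genes) and 2 lower (Ghr and Nr3c1; 17.6% of all genes). Within day 14, 4 members were at least 2-fold higher in enzyme-high than in enzyme-low cells (Lhcgr, Prlr, Mrap and Esr1; 4.01% of all genes) and 0 were lower (7.14% of all genes). The median log2 ratio of the members counted was -0.17, 0.88, 0.98 and 0.76 in these 4 comparisons, beside 0.10, -0.14, -0.06 and -0.06 over all genes counted. Because the members were chosen with earlier results of these data known, these counts and medians are no test of the members as a set. Comparisons with day 14 share that library.

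**Figure D1:**
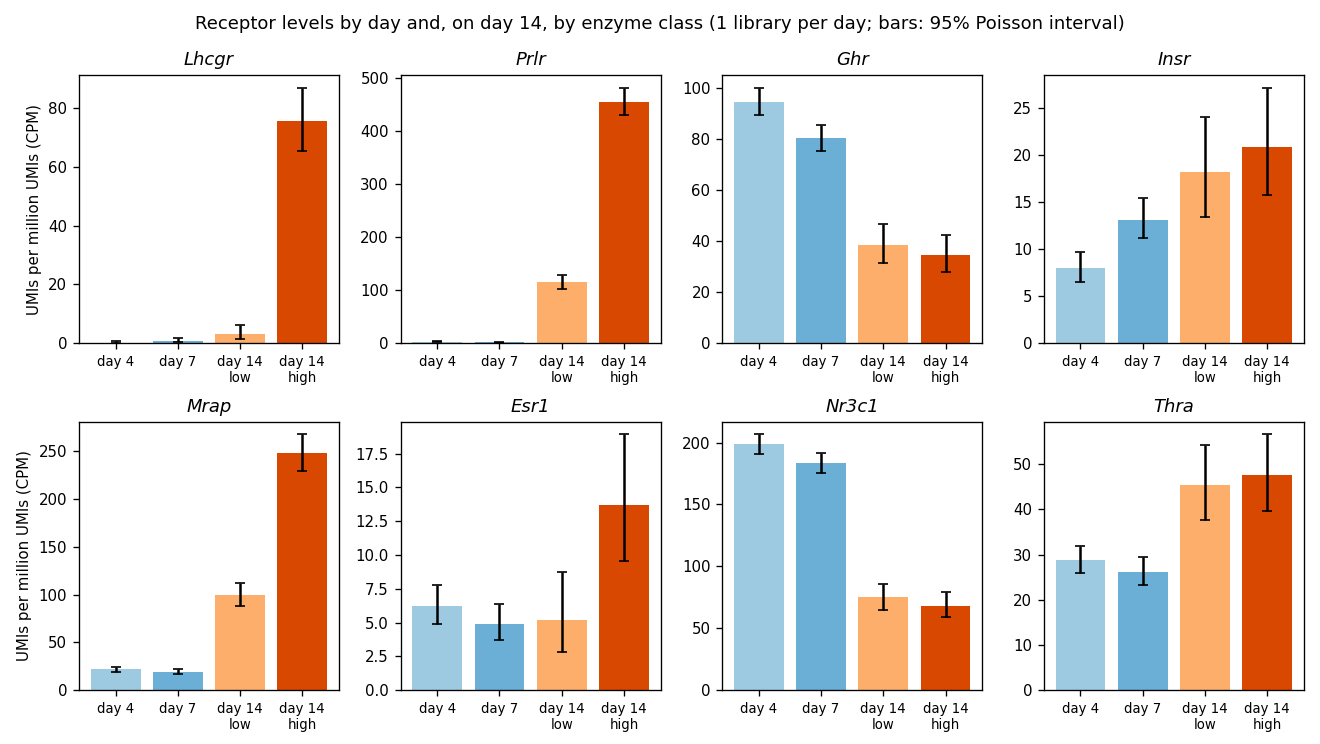
Level of each member in UMIs per 1000000 UMIs (vertical axis, from 0, its own scale in each panel) in the cells of day 4, of day 7 and of both enzyme classes of day 14, 1 library per day. Bars carry exact Poisson 95% intervals. Lhcgr reaches 75.6 CPM and Prlr 455 CPM in enzyme-high cells, while Ghr and Nr3c1 are highest on day 4.

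**Figure D2:**
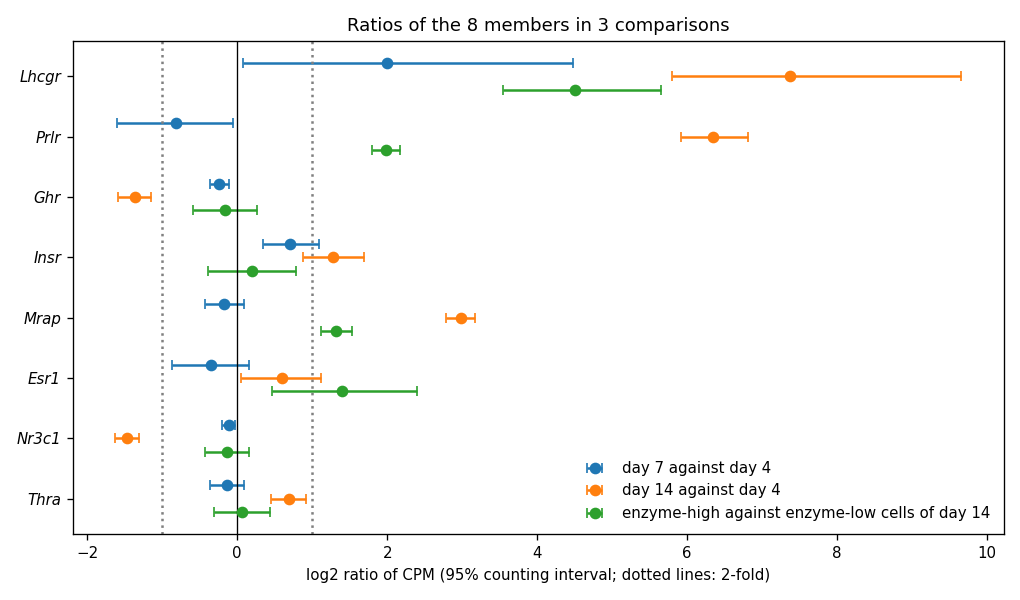
The log2 ratio of each member (horizontal axis) in 3 comparisons, with 95% counting intervals and dotted lines at 2-fold. Day 7 against day 4 gives ratios between 0.570 and 1.64 for the members other than Lhcgr, which had 14 UMIs over both days.

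Lhcgr (chr17:88716481-88791990, minus strand), the receptor of luteinizing hormone, gave 3 UMIs on day 4, 11 UMIs on day 7, 9 UMIs in enzyme-low and 199 UMIs in enzyme-high cells of day 14. These are levels of 0.237 (0.0488 to 0.692), 0.946 (0.472 to 1.69), 3.34 (1.53 to 6.35) and 75.6 CPM (65.4 to 86.8). The enzyme-high level stood apart from the other 3. Among those, day 7 was 4.00 times day 4 (1.06 to 22.3, from 14 UMIs in all). Enzyme-low cells of day 14 were 3.53 times all cells of day 7 (1.29 to 9.38). These sets are unlike, as 33 enzyme-high cells held 10 of the 11 UMIs of day 7. The other day 7 cells gave 1 UMI (0.0870 CPM). Over all day 14 cells the level was 165 times that of day 4 (55.7 to 807) and 41.3 times that of day 7 (22.6 to 84.0), and in enzyme-high cells it was 22.6 times that of enzyme-low cells (11.7 to 50.2). The sizes depend on the weighting of cells: the log2 ratio to day 7 was 5.37, but 4.21 with equal weight per cell, 3.76 after thinning to 1500 UMIs and 8.81 without the enzyme-high cells of day 7, and the ratio to day 4 was 51.9 after thinning. A UMI of Lhcgr was seen in 18.4% of the 418 enzyme-high cells (exact Clopper-Pearson 95% interval 14.8 to 22.5%, median depth 3603 UMIs) and in 0.101% of the 2980 day 4 cells (median depth 2886.5 UMIs). In the 2453 day 4 cells with at least 5 Acta2 UMIs per 10000, 1 Lhcgr UMI was seen (0.0408% of cells). With each cell thinned to 1500 UMIs, leaving out 59 enzyme-high and 753 day 4 cells, the shares were 7.43% and 0.0474%. The 10 cells with the most Lhcgr UMIs held 78 of the 199, so the enzyme-high level was uneven among cells.

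Prlr (chr15:10177238-10349180, plus strand), the prolactin receptor, gave 44 UMIs on day 4 (3.47 CPM), 23 UMIs on day 7 (1.98 CPM), 310 UMIs in enzyme-low (115 CPM) and 1197 UMIs in enzyme-high cells of day 14 (455 CPM). Both classes of day 14 were far above the earlier days, and enzyme-low cells held 310 of the 1507 Prlr UMIs of that day, where the part of free RNA was not tested. Over all day 14 cells it was 81.5 times the day 4 level (60.4 to 113) and 143 times the day 7 level (log2 ratio 7.16, 6.57 to 7.82; 6.36 with equal weight per cell, 6.45 after thinning and 8.21 without the enzyme-high cells of day 7), and it was 3.95 times higher in enzyme-high than in enzyme-low cells (3.48 to 4.49). A UMI was seen in 63.4% of enzyme-high and 22.3% of enzyme-low cells, or 41.7% and 12.2% after thinning, against 0.286% on day 4. The day 4 level rests on few cells, as 1 cell held 19 of the 44 UMIs, and without it the level was 1.98 CPM. With equal weight per cell, the day 7 to day 4 ratio was 1.52 in place of 0.570, so no direction between these days is given. The gene model Gm21973 shares 203 exonic bases with Prlr on the same strand in GENCODE M21.

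Mrap (chr16:90738207-90749785, plus strand), a partner that carries the ACTH receptor to the cell surface, gave 278 UMIs on day 4 (21.9 CPM), 226 UMIs on day 7 (19.4 CPM), 267 UMIs in enzyme-low (99.2 CPM) and 653 UMIs in enzyme-high cells (248 CPM). It was read at every day and, of these 4 groups, was highest in enzyme-high cells of day 14. The few enzyme-high cells of days 4 and 7 read higher, at 1533 and 606 CPM, but 8 and 33 cells are too few for firm levels. Over all cells, the level of day 14 was 7.88 times that of day 4 (6.88 to 9.04). Enzyme-high cells were 0.268% of day 4 and 43.0% of day 14 cells, and the part of that share in this ratio was not tested. Within day 14, the level of enzyme-high cells was higher than that of enzyme-low cells by 1.32 on the log2 scale (1.11 to 1.53). In cells of 2000 to 6000 UMIs the latter log2 ratio was 0.98, and with Cyp11a1 alone setting the classes it was 0.87, both under 2-fold. Its partner Mc2r, the ACTH receptor, gave 0 UMIs on day 4, 2 UMIs on day 7, 2 UMIs in enzyme-low and 0 UMIs in enzyme-high cells, where 3 counts would be 1.14 CPM.

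Ghr (chr15:3317760-3583492, minus strand), the growth hormone receptor, went the other way, with 94.5 CPM on day 4 (1198 UMIs), 80.2 CPM on day 7 (933 UMIs), 38.6 CPM in enzyme-low (104 UMIs) and 34.6 CPM in enzyme-high cells of day 14 (91 UMIs). Both classes of day 14 were below both earlier days, and the classes did not differ beyond counting error (ratio 0.894, 0.668 to 1.20). The day 14 level was 0.388 times that of day 4 (0.331 to 0.451) and 0.456 times that of day 7 (0.389 to 0.533). Against day 7 the ratio was 0.535 with equal weight per cell, 0.527 after thinning and 0.503 with median-of-ratios scaling, each short of 2-fold.

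Insr (chr8:3122061-3279617, minus strand), the insulin receptor, stood at 8.05 CPM on day 4 (102 UMIs), 13.2 CPM on day 7 (153 UMIs), 18.2 CPM in enzyme-low (49 UMIs) and 20.9 CPM in enzyme-high cells (55 UMIs). The day 14 level was 2.43 times that of day 4 (1.83 to 3.22), and its interval reaches below 2-fold. Neither neighbouring step passed 2-fold, with 1.64 times from day 4 to day 7 (1.26 to 2.12) and 1.48 times from day 7 to day 14 (1.15 to 1.92). The classes of day 14 did not differ beyond counting error (ratio 1.15, 0.766 to 1.72).

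Nr3c1 (chr18:39410545-39519421, minus strand), the glucocorticoid receptor, stood at 199 CPM on day 4 (2519 UMIs), 184 CPM on day 7 (2134 UMIs), 75.1 CPM in enzyme-low (202 UMIs) and 68.4 CPM in enzyme-high cells (180 UMIs). As with Ghr, both classes of day 14 were below both earlier days and alike within counting error (ratio 0.911, 0.741 to 1.12). The day 14 level was 0.361 times that of day 4 (0.323 to 0.402) and 0.391 times that of day 7 (0.350 to 0.436). A UMI was seen in 24.9% of day 4 cells and 9.63% of day 14 cells after thinning.

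Thra (chr11:98740638-98769006, plus strand), a thyroid hormone receptor, stood at 28.9 CPM on day 4 (366 UMIs), 26.2 CPM on day 7 (305 UMIs), 45.3 CPM in enzyme-low (122 UMIs) and 47.5 CPM in enzyme-high cells (125 UMIs). Day 14 was 1.61 times day 4 (1.36 to 1.89) and 1.77 times day 7 (1.49 to 2.10), short of 2-fold, and the classes did not differ beyond counting error (ratio 1.05, 0.810 to 1.36). Thra shares 263 exonic bases with Nr1d1 on the opposite strand, and whether counting used strand is not given in the sources used here. Nr1d1 stood at 13.2, 14.7, 16.0 and 6.46 CPM in the same order of groups.

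Esr1 (chr10:4611593-5005614, plus strand), the estrogen receptor alpha, was sparse, with 79 UMIs on day 4 (6.23 CPM), 57 UMIs on day 7 (4.90 CPM), 14 UMIs in enzyme-low (5.20 CPM) and 36 UMIs in enzyme-high cells (13.7 CPM). The enzyme-high level was 2.63 times the enzyme-low level (1.38 to 5.28). Thinning left 2 UMIs in enzyme-high and 4 UMIs in enzyme-low cells and a ratio of 0.606, and cells of 2000 to 6000 UMIs gave 1.95, so the difference is not established at this depth. Day 14 was 1.51 times day 4 (1.04 to 2.17).

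The enzyme classes cut a continuous range, so the day 14 cells were also read in 4 ranges of Cyp11a1 plus Hsd3b1: 0 (324 cells), above 0 to below 10 (231 cells), 10 to below 50 (179 cells) and 50 and above (239 cells) per 10000 UMIs. Median depths were 2025, 5177, 3700 and 3426 UMIs per cell. Lhcgr stood at 1.94, 4.22, 22.6 and 114 CPM, with intervals of the upper 2 ranges apart from each other and from the lower 2. Prlr stood at 71.7, 142, 314 and 556 CPM and Mrap at 71.7, 116, 199 and 283 CPM, a more even gradation. Nr3c1 stood at 85.3, 68.7, 80.6 and 59.5 CPM, Ghr at 42.6, 36.2, 36.2 and 33.4 CPM, and Thra at 45.5, 45.2, 47.1 and 47.7 CPM, and the intervals of the 4 ranges overlapped for each of these genes. Overlap does not show equal levels, and Nr3c1 was lowest at 50 and above, at 0.738 times the range of 10 to below 50 (0.545 to 1.00). Insr stood at 16.5, 19.3, 29.0 and 15.0 CPM.

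**Figure D3:**
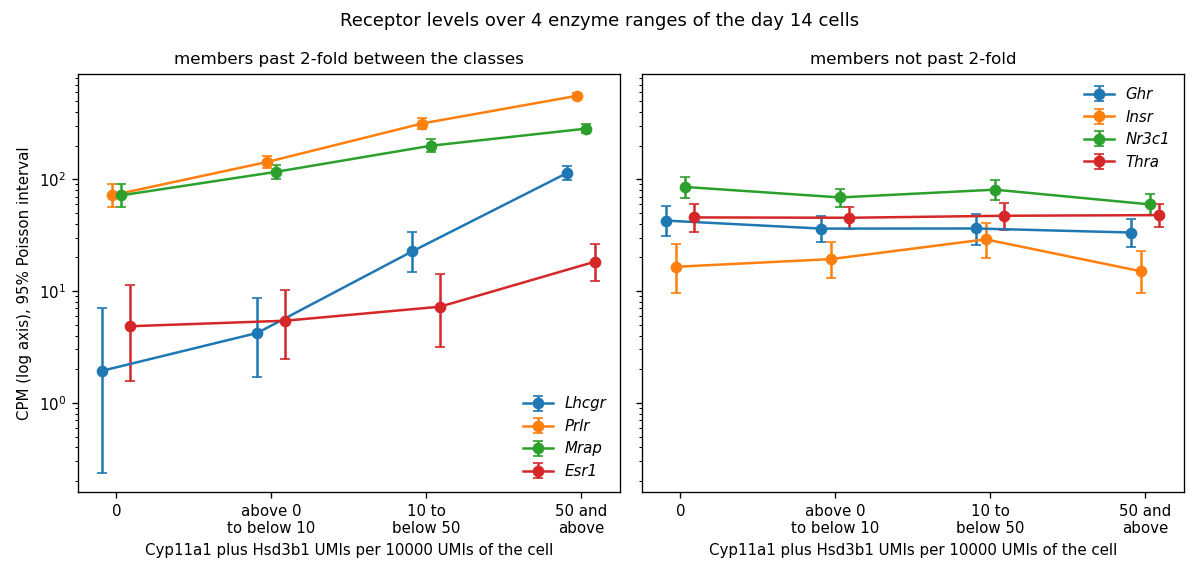
Level of the members in CPM (vertical log axis, 95% Poisson intervals) over 4 ranges of Cyp11a1 plus Hsd3b1 per 10000 UMIs (horizontal axis) in the day 14 library. Lhcgr goes from 1.94 to 114 CPM, Prlr from 71.7 to 556 CPM, and Thra stays between 45.2 and 47.7 CPM.

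Prlr kept a like proportion to Insl3 over the 4 ranges, with 16.9, 15.8, 15.1 and 15.9 Prlr UMIs per 100 Insl3 UMIs and overlapping intervals. Lhcgr gave 0.458, 0.470, 1.09 and 3.26 and Cyp17a1 gave 2.75, 3.29, 7.94 and 80.9 UMIs per 100 Insl3 UMIs. Mrap went the other way, with 16.9, 13.0, 9.55 and 8.11. Insl3 was seen in 43.5% of the cells without a UMI of either enzyme, and the part of free RNA in Prlr and Insl3 counts of those cells was not tested.

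**Figure D4:**
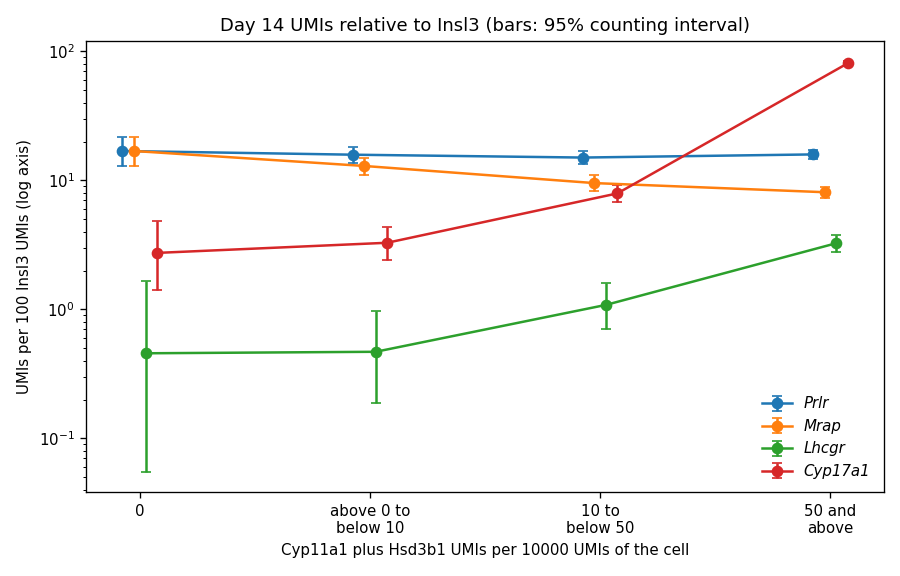
UMIs of Prlr, Mrap, Lhcgr and Cyp17a1 per 100 Insl3 UMIs (vertical log axis, 95% counting intervals) over the same 4 enzyme ranges (horizontal axis) of day 14. Prlr lies between 15.1 and 16.9 while Cyp17a1 goes from 2.75 to 80.9.

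Among enzyme-high cells, Lhcgr was found more often with Cyp17a1. Cells with a Cyp17a1 UMI also had higher levels of Cyp11a1 (5116 against 2478 CPM without) and Hsd3b1 (4207 against 2320 CPM). The part of enzyme level in this pairing was not tested. After thinning, 15 of 121 cells with a Cyp17a1 UMI held Lhcgr (12.4%, 7.11 to 19.6%), against 9 of 238 without (3.78%, 1.74 to 7.06%). Lower shares with Cyp17a1 were seen for Thra, with 2 of 121 (1.65%, 0.201 to 5.84%) against 23 of 238 (9.66%, 6.23 to 14.1%), and for Mrap, with 19 of 121 (15.7%, 9.73 to 23.4%) against 66 of 238 (27.7%, 22.1 to 33.9%). Without thinning, at median depths of 5781 and 3030 UMIs, the ratio of levels with to without Cyp17a1 was 4.33 for Lhcgr (2.84 to 6.88), 1.43 for Prlr (1.26 to 1.62), 0.609 for Ghr (0.395 to 0.939) and 0.728 for Nr3c1 (0.537 to 0.987). It was within counting error of 1 for Thra (0.719, 0.498 to 1.04) and Mrap (0.997, 0.850 to 1.17). The lower shares of Thra and Mrap are from 1 random draw of thinned counts. The unthinned groups held other sets of cells (189 with and 229 without Cyp17a1), and summed levels weight deep cells more. Why shares and levels differ for these genes was not tested. Prlr and Mrap were not found together beyond counting error, as 24.4% of 156 cells with Prlr and 23.2% of 203 cells without held Mrap. At least 2 of the 8 members were seen in 27.3% of thinned enzyme-high cells, 8.74% of enzyme-low cells, 4.94% of day 7 cells and 6.33% of day 4 cells. The share expected from each member's own level was not computed, so these shares do not show that members occur together.

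A few cells of the earlier days already met the enzyme limit and held much of the Prlr, Mrap and Lhcgr of those days. On day 4, 8 such cells held 0.479% of all UMIs but 29 of the 44 Prlr UMIs and 93 of the 278 Mrap UMIs, with 0 of the 3 Lhcgr UMIs. On day 7, 33 such cells held 1.18% of all UMIs but 10 of the 11 Lhcgr, 12 of the 23 Prlr and 83 of the 226 Mrap UMIs. These cells held 8 of 2519 Nr3c1 UMIs on day 4 and 4 of 2134 on day 7. Groups of under 50 cells are too few for firm levels. In the 8 cells of day 4, Prlr stood at 478 CPM (320 to 686, 1 cell holding 19 of 29 UMIs). Mrap stood there at 1533 CPM (1237 to 1877, 1 cell holding 48 of 93 UMIs). In the 33 cells of day 7, Lhcgr stood at 73.1 CPM (35.0 to 134) and Prlr at 87.7 CPM (45.3 to 153). Mrap stood there at 606 CPM (483 to 752). Enzyme-high cells of day 14 gave 75.6, 455 and 248 CPM for Lhcgr, Prlr and Mrap. Without these cells of days 4 and 7, Lhcgr gave 1 UMI on day 7 and Prlr 15 UMIs on day 4. The day 14 to day 4 ratio of Prlr was then 238. On day 14 the enzyme-high cells held 49.4% of all UMIs and 95.7% of Lhcgr, 79.4% of Prlr, 71.0% of Mrap and 47.1% of Nr3c1 UMIs.

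**Figure D5:**
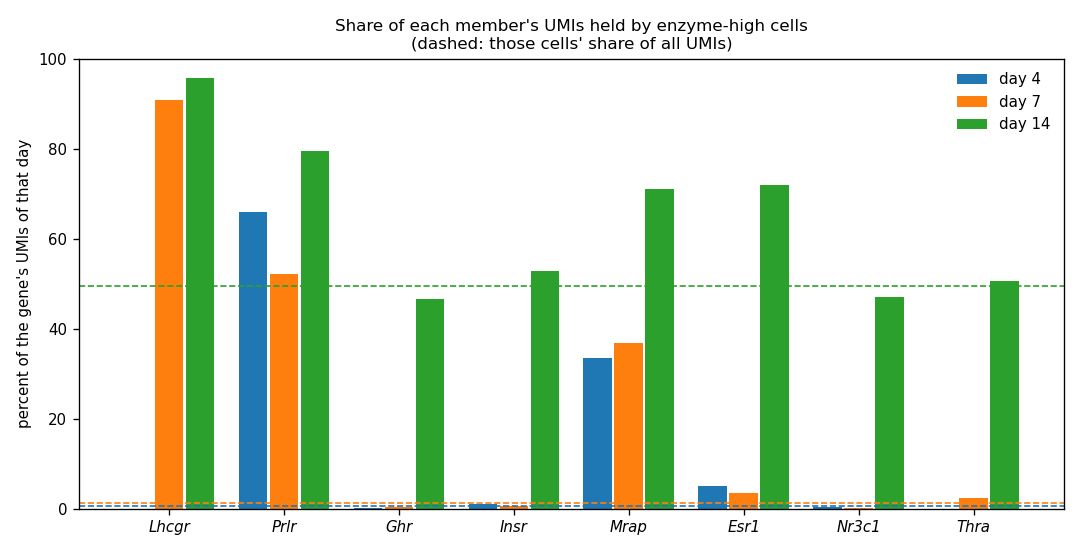
Percent of each member's UMIs held by enzyme-high cells (vertical axis, from 0) on days 4, 7 and 14, with dashed lines at those cells' share of all UMIs (0.479%, 1.18% and 49.4%). On day 7, 90.9% of the 11 Lhcgr UMIs lie in 33 cells.

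Within days 4 and 7, cells below 5 Acta2 UMIs per 10000 (527 and 544 cells) were compared with the others (2453 and 1627 cells). Acta2 encodes smooth muscle actin. Prlr was 10.6 times (5.53 to 20.9) and Mrap 3.24 times (2.51 to 4.17) higher in Acta2-low cells of day 4, and 11.7 and 4.37 times higher on day 7. Of the enzyme-high cells, only 1 of 8 on day 4 and 9 of 33 on day 7 held an Acta2 UMI. Acta2-low cells thus include most enzyme-high cells, and their part in these ratios was not tested. For Mrap on day 4, 1 cell held 28 of the 97 UMIs of Acta2-low cells and 1 cell 48 of the 181 of the others. On day 7, 10 cells held 64 of the 116 Mrap UMIs of Acta2-low cells. On day 4, 1 cell held 19 of the 28 Prlr UMIs of Acta2-low cells, whose level was 15.6 CPM with it and 5.06 CPM without it, against 1.47 CPM in the others. On day 7, 1 cell held 8 of the 17, and the level was 7.52 CPM with it and 3.99 CPM without it, against 0.641 CPM. All 11 Lhcgr UMIs of day 7 were in Acta2-low cells, and the others gave 0 UMIs, with an upper 95% Poisson limit of 0.394 CPM. Insr was 2.29 times (1.43 to 3.58) and Esr1 2.19 times higher (1.26 to 3.66) in Acta2-low cells of day 4, and 1.57 (1.07 to 2.25) and 1.10 times (0.532 to 2.12) on day 7. Thra was 1.86 and 1.71 times higher, while Nr3c1 gave ratios of 0.988 and 0.866 and Ghr 0.859 and 1.21. By cell cycle genes, Ghr was 0.645 times as high in the 496 cycling cells of day 4 as in the others and 0.772 times in the 378 of day 7, with 95% intervals below 1 on both days. Mrap gave a log2 ratio of 0.58 on day 4 (0.17 to 0.98), where 1 cell held 48 of the 71 UMIs of cycling cells, and -1.64 on day 7 (-2.50 to -0.88, 15 UMIs in cycling cells), so no direction is given.

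Of 28 counted genes of cAMP signaling, 6 were at least 2-fold higher (16.3% of all genes) and 5 lower (17.6% of all genes) on day 14 than on day 4, shares near those of all genes. Gnas, the stimulatory G protein, was 4.14 times and Rgs2, a regulator of G protein signaling, 10.0 times higher, while Prkar2a and Pde4b stood at 0.330 and 0.401 times the day 4 level. Of 15 genes of JAK-STAT signaling, 0 were higher and 5 lower beside the same 16.3% and 17.6%, among them Jak2 (0.293) and Igf1 (0.391), a target of growth hormone. Within day 14, 1 of 14 was higher and 1 lower in enzyme-high cells (4.01% and 7.14% of all genes). Socs2, a feedback inhibitor of growth hormone signaling, was 3.82 times higher (2.39 to 6.35), and the lower gene was Socs3, of the same family.

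Of 15 counted receptors for other peptide hormones, 3 were higher and 6 lower on day 14 than on day 4, where 16.3% of all genes were higher and 17.6% lower. Oxtr, the oxytocin receptor, was 95.2 times higher (45.6 to 239), and Lifr was 4.83 times higher. Adcyap1r1 and Npr3 stood at 0.100 and 0.120 times the day 4 level. Within day 14, 1 of 11 was higher in enzyme-high than in enzyme-low cells, Oxtr at 8.52 times (4.01% of all genes). Avpr1a, Ednra and Calcrl were lower, 3 of 11 (7.14% of all genes). The median log2 ratio of the 11 was -0.65, beside -0.06 over all genes. Of 14 other nuclear receptors, 3 were higher and 1 lower on day 14 than on day 4 (16.3% and 17.6% of all genes). Thrb, another thyroid hormone receptor, stood at 3.87 and Pgrmc1 at 4.37 times the day 4 level.

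Of 20 partners and targets of the glucocorticoid receptor, 3 were higher and 0 lower on day 14 than on day 4 (16.3% and 17.6% of all genes). The 3 were Hsd11b2, Per1 and Zbtb16. Against day 7, 7 were higher and 2 lower (12.4% and 16.6% of all genes), among them Hsd11b1 (4.40), which regenerates active glucocorticoid, and Sgk1 (0.462). Hsd11b1 was at least 2-fold lower on day 7 than on day 4 and did not pass 2-fold from day 4 to day 14. Hsd11b2 was higher on day 14 than on both earlier days. Within day 14, 0 of 19 were higher and 4 lower in enzyme-high cells (4.01% and 7.14% of all genes), among them Tsc22d3 (0.474) and Errfi1 (0.253). The next 4 lists also compare day 14 with day 4, with 16.3% of all genes higher and 17.6% lower. Of 22 genes of insulin signaling, 2 were higher and 3 lower on day 14 than on day 4, with Pik3r2 at 2.66, Irs2 at 0.123 and Enpp1 at 0.128 times. Of 10 genes of thyroid hormone handling, 2 were higher and 1 lower. Of 5 estrogen related genes, 2 were higher and 0 lower, Greb1 (10.2) and Cited2 (2.10). Of 3 counted genes of the melanocortin system, 1 was higher, Mc4r, with 26 UMIs on day 14. The median log2 ratios of day 14 to day 4 were -0.22 for cAMP signaling, -0.19 for JAK-STAT signaling, 0.31 for other peptide hormone receptors, 0.29 for other nuclear receptors, -0.03 for glucocorticoid partners and targets, -0.11 for insulin signaling, 0.28 for thyroid hormone handling, -0.08 for estrogen related genes and 0.98 for the melanocortin system, beside -0.06 over all genes counted.

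The genes most like each member were sought over day 4, day 7 and the 4 ranges of day 14, as the smallest root mean square difference of centred log2(CPM + 1) among 10666 genes with at least 100 UMIs. For Lhcgr they were Hao2 (0.49), Amhr2 (0.50), the receptor of anti-Müllerian hormone, and Sfrp4 (0.57). For Prlr they were Gsta4 (0.30), Sftpc (0.44) and Defb19 (0.49), and for Mrap Abca1 (0.11), a cholesterol exporter, Fam195a (0.15) and Fkbp7 (0.22). For Ghr they were Fbxo4, Ranbp1 and Calm2, for Nr3c1 Ddx1, Ifrd1 and Lims1, for Insr Card6, Galns and Ppt2, for Thra Txndc5, Ubn2 and Anks3, and for Esr1 Gpcpd1, Med10 and Pdk1, with differences from 0.05 to 0.20. The 6 groups share 3 libraries.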

How the data were processed

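Drop-seq libraries of days 4, 7 and 14 of the Leydig differentiation were analysed, 1 library per day. The authors deposited raw UMI counts per gene and cell, made with Drop-seq tools from reads aligned to GRCm38, per the study's methods. The submitters' processing notes name STAR 2.5.2a, Picard 2.6.0 and SAMtools 1.2. The merged table of deposited counts held 6124 cells of these days, each with 500 or more genes and no more than 10% of UMIs from mitochondria. They were found in the 7000 barcodes of the tables per day, with 0 differing entries. Its other 495 columns were not used. The annotation release and the strand setting behind the counts are not given in the sources used here.

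Counts were summed over cells and divided by the group's total. Ratios of these levels carry exact conditional binomial 95% intervals. A gene was counted where the compared groups held at least 20 UMIs together, and called higher or lower at a ratio of at least 2 or at most 0.5. A group at 0 was set to 3 counts. Shares after thinning are the expected shares at 1500 UMIs per cell, and values for genes read together and for members per cell rest on 1 random draw. Intervals and limits cover counting error only. Drop-seq primes at the 3′ end of transcripts, and levels of different genes were not compared. Doublets were not removed in the main values, and an alternative left out the 6% of cells with the highest Scrublet score. Cell filter, weighting, thinning, scaling, the UMI minimum and the enzyme limit were also varied. The ratio step was tested on simulated data.

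The members and gene lists were chosen with earlier results of these data known. Examples from each list are those with the largest ratios among genes of at least 100 UMIs, up to 2 in each direction. Examples from the thyroid hormone list are not reported here. Gm21973, Nr1d1, Mc2r, Mc4r, Hsd11b2, Per1, Zbtb16, Socs3, Avpr1a, Ednra and Calcrl were named after their values were seen. Python 3.11.15, numpy 2.4.6, scipy 1.17.1, scanpy 1.11.5, anndata 0.12.19 and matplotlib 3.10.9 were used. Positions are from GENCODE M21.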

Additional observations from a re-analysis of the deposited data

How the results depend on the processing

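Of 312 values of member ratios under 13 other settings, 278 stayed within the main counting interval, 30 lay outside it and 4 changed sign although the main interval excluded a ratio of 1. Changes of sign in ratios whose main interval held 1 are not among the 4, and the Mrap ratio of day 7 to day 4 was such a case (-0.17 on the log2 scale, 0.31 with equal weight per cell and 0.97 after thinning). The 4 were the Lhcgr ratio of day 7 to day 4 without the enzyme-high cells of those days (-1.45 on the log2 scale, from 1 and 3 UMIs), the Prlr ratio of the same days with equal weight per cell (0.61), and, after thinning to 1500 UMIs, the Esr1 ratios of day 14 to day 4 (-0.015) and of enzyme-high to enzyme-low cells (-0.72, from 2 and 4 UMIs). With a minimum of 10 UMIs, 1 member (Lhcgr) was 2-fold higher on day 7 than on day 4. With equal weight per cell, thinning or median-of-ratios scaling, 1 member in place of 2 was 2-fold lower on day 14 than on day 7, Ghr being just short. Median-of-ratios scaling moved the median log2 ratio of all genes from -0.14 to -0.0056 in that comparison. In cells of 2000 to 6000 UMIs, 2 members in place of 4 were 2-fold higher in enzyme-high cells, with Mrap at 1.98 and Esr1 at 15 UMIs in all. The other counts of members stayed within 1.5 times. Lhcgr stood at least 18.0 times and Prlr at least 2.89 times higher in enzyme-high cells under all 12 settings of that comparison. The Lhcgr ratio was highest with the enzyme limit at 5 per 10000 (74.1). The settings without macrophage-marker cells and without enzyme-high cells of days 4 and 7 were chosen after seeing the data. No paired analysis was possible because there was 1 library per day. No library could be left out for the same reason, and Lhcgr, Esr1 and Insr are limited by their few UMIs.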
